A study of Mus musculus with 18 samples.

Results

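The genes described here encode enzymes that make or remove lipid mediators of inflammation: the leukotriene enzymes Alox5, Alox5ap, Lta4h and Ltc4s, the lipoxygenase Alox15, the prostaglandin enzymes Ptgs1, Ptgs2, Ptges and Hpgds, and Pla2g7, an enzyme that inactivates platelet-activating factor. They were chosen by symbol, as probe sets annotated with that symbol and no other. Of the 10 genes, 9 had such a probe set, 1 each, among 19752 genes measured; Ptgs1 was not analysed here. Levels were read on 18 Affymetrix Mouse Gene 1.0 ST arrays, which hold probes along whole transcripts, with 2 arrays for each of 9 immune populations. All cells came from male C57BL/6 (B6) mice aged 6 weeks, taken 2 h after 10000 U of interferon gamma (IFNg) under the skin and sorted by FACS. Untreated mice were not part of the values analysed here, so every value is a level in treated animals and none is a response to IFNg.

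The 3 myeloid populations were peritoneal macrophages (MF, gated for ICAM2 and the macrophage antigen encoded by Adgre1), splenic granulocytes (GN, Ly6G+) and splenic dendritic cells (DC, CD11c+ MHCII+ Flt3+). The 6 lymphoid populations, all splenic, were NK cells (NK, NK1.1+ TCRB-), NK1.1+ TCRB+ T cells (NKT), CD4+ TCRB+ T cells (T4), CD8+ TCRB+ T cells (T8), TCRgd+ TCRB- T cells (Tgd) and CD4+ TCRB+ CD25+ T cells (Treg). Only MF came from the peritoneal cavity, so for MF tissue and cell type cannot be told apart. Whether both arrays of a population came from separate mice is not stated in the labels, and p-values then reflect only array-to-array spread, which may be technical. Each population's own marker list had its highest mean level in that population on both arrays, although only 3 of 8 Tgd markers were measured. On the DC arrays all 12 granulocyte markers also lay above the median of all genes. Their mean log2 intensity was 9.08 on DC replicate 1 and 11.05 on DC replicate 2, against 12.83 and 13.03 in GN and at most 6.73 on any other array. In GN, 7 of 10 red pulp macrophage, 4 of 5 monocyte and 6 of 11 MF markers had means above the median of all genes. In DC these counts were 9 of 10, 4 of 5 and 7 of 11, and 6 of 8 B cell markers lay above that median as well. The part of such cells in the GN and DC levels was not tested.

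Leukotrienes and prostaglandins are made from arachidonic acid that phospholipase A2 enzymes release from membranes. In the leukotriene arm, 5-lipoxygenase (Alox5), helped by its activating protein (Alox5ap), makes leukotriene A4, which leukotriene A4 hydrolase (Lta4h) turns into the neutrophil attractant leukotriene B4 and leukotriene C4 synthase (Ltc4s) into the cysteinyl leukotrienes. In the prostanoid arm, the cyclooxygenases (Ptgs1 and the inducible Ptgs2) make prostaglandin H2, from which terminal synthases such as Ptges and Hpgds make prostaglandins E2 and D2. Macrophages, neutrophils and mast cells are well known sources of these lipids.

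All 9 measured enzymes differed between the 9 populations, where 39.0% of all genes passed the same test. To pass, a gene needed an adjusted p (limma, Benjamini-Hochberg) under 0.05 and population means at least 2-fold apart, which is 1 on the log2 scale. The median range of the 9 genes was 5.40 on the log2 scale, against 0.71 over all genes. They did not share a single pattern: Pla2g7, Alox5 and Alox5ap were high in several myeloid populations, Ltc4s, Alox15 and Ptges were highest in MF, Ptgs2 was high in GN and DC, Hpgds was highest in DC, and Lta4h was bright in every population. Levels below are log2 intensities per array, and because probes differ in brightness, levels of different enzymes are not set against each other. For orientation, the median over all genes and arrays was 7.19. Markers and enzymes are placed against that median, and marker lists are averaged or summed. For the same reason these placings and sums are rough.

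**Figure D1:**
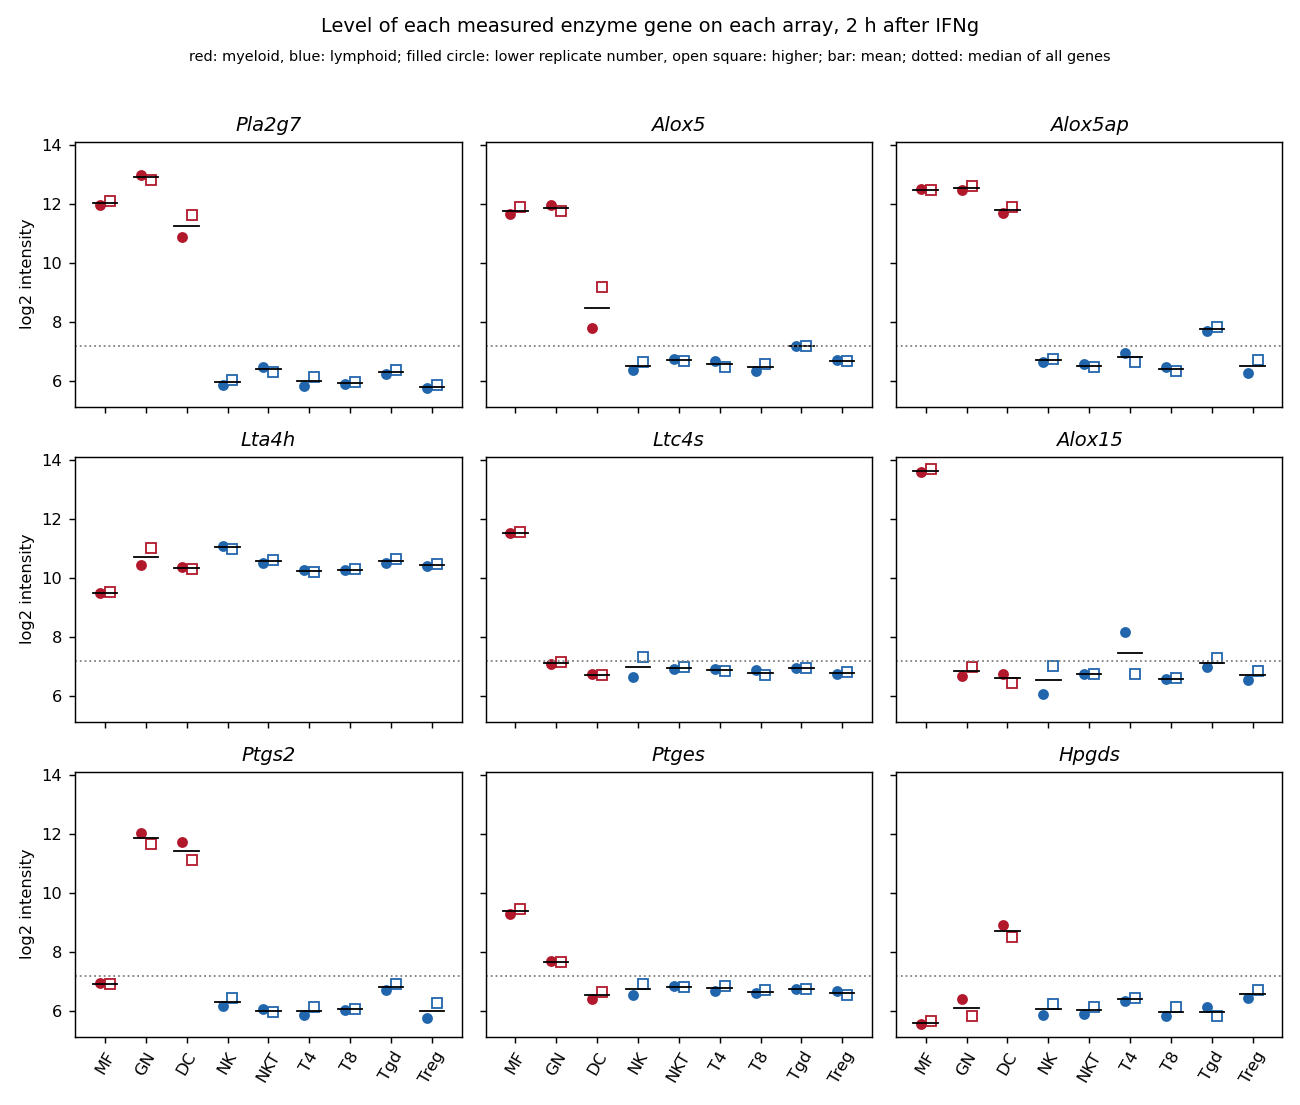
Log2 intensity of each of the 9 measured enzyme genes (y axis) on each of the 18 arrays, by population (x axis, MF, GN and DC in red, lymphoid populations in blue), with bars at the mean of 2 arrays and a dotted line at 7.19, the median of all genes. Alox5ap and Pla2g7 lie above 10.8 on all myeloid arrays and below 8 on all lymphoid ones, while Lta4h stays between 9.49 and 11.08 throughout.

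The 250 bases before the transcription start in the RefSeq promoter table (build GRCm38.p6) are shown for 4 enzymes, 1 for each myeloid pattern. They are Ltc4s (high in MF), Ptgs2 (high in GN and DC), Hpgds (high in DC) and Pla2g7 (high in all 3). Each is written 5′ to 3′ on the strand of its gene, and capitals mark matches to 8 motifs chosen after the levels were seen.
Ltc4s, chr11:50238533-50238782, minus strand: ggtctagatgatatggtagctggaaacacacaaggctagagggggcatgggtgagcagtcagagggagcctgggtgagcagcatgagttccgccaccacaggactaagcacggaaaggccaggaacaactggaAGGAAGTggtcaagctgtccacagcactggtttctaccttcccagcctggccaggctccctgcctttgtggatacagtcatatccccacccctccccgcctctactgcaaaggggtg
Ptgs2, chr1:150099781-150100030, plus strand: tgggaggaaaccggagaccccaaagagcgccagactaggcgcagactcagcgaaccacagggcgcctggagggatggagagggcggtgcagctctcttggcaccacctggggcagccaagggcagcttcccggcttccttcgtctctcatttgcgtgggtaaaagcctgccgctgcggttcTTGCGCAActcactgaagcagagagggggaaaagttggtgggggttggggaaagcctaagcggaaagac
Hpgds, chr6:65144731-65144980, minus strand: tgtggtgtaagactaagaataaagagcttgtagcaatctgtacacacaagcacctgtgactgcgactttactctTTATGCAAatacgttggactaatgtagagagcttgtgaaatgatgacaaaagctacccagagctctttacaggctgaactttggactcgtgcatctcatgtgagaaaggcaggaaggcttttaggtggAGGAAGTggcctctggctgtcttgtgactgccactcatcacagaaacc
Pla2g7, chr17:43568201-43568450, plus strand: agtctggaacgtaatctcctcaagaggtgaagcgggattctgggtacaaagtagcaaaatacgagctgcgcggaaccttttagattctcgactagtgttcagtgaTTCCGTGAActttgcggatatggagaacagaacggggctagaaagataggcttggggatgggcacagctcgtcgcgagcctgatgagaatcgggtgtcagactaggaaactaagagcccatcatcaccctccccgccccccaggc

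The motifs were searched on both strands. The letters AGGAAGT, a core of sites of the myeloid factor PU.1, occurred in the Ltc4s window, starting 117 bases before the start, and in the Hpgds window at 48 bases, and in 7.69% of all 32851 promoter windows of this length. The letters TTGCNNAA of C/EBP factors occurred in the Ptgs2 window at 69 bases and in the Hpgds window at 176 bases on the other strand, and in 9.56% of all windows. The match in Ptgs2, TTGCGCAA, reads the same on both strands. The letters TTCNNNGAA of the gamma-activated site bound by STAT factors occurred in the Pla2g7 window at 145 bases and in 7.02% of all windows. None of the 4 windows held the letters TATAAA of a classical promoter box, present in 12.4% of all windows. None held TGACG, the core of the cyclic AMP response element, present in 17.8%. The letters AGATAA, bound by GATA factors, were in none of the 4 and in 9.99% of all windows. The same held for the NF-kB motif, found in 4.11% of all windows, and the interferon-stimulated response element ISRE, found in 2.98%. The GC content was 61.6% for Ptgs2, 57.6% for Ltc4s, 52.8% for Pla2g7 and 45.2% for Hpgds, against a median of 52.4%. The Alox5 and Lta4h windows held none of the 8 motifs, nor did that of Ptges. Alox15 and Alox5ap are named only. These matches are a description of letters, not of binding.

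Alox5, which starts leukotriene synthesis, was high in GN at 11.95 and 11.77 and in MF at 11.66 and 11.88. On the 12 lymphoid arrays it lay between 6.33 and 7.18, with a median of 6.66. In DC it stood at 7.78 on replicate 1 and 9.19 on replicate 2, so the DC arrays lay between the other myeloid arrays and the lymphoid ones and differed from each other by 1.41. The range over the 9 populations was 5.40 (adjusted p = 3.33e-12). In the order of means, GN and MF were followed by DC, 3.29 ± 0.28 (SE) below MF (adjusted p = 3.20e-08), and by Tgd, 1.30 ± 0.28 below DC (adjusted p = 0.00133). That last step rested on DC replicate 2, without which it was 0.60 and did not pass. GN and MF differed by 0.09 ± 0.28 (adjusted p = 0.785), and no later step passed. Without DC replicate 2 the DC mean was not above that of the other 8 populations, as described below. In bulk samples such as these, fewer cells of a type and less RNA per cell cannot be told apart.

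Alox5ap, a membrane protein that presents arachidonic acid to 5-lipoxygenase, was high in all 3 myeloid populations, including DC. It stood at 12.48 and 12.59 in GN, 12.49 and 12.46 in MF, and 11.67 and 11.89 in DC, with no overlap with the lymphoid arrays, which lay between 6.28 and 7.83. Its range was 6.14 (adjusted p = 7.25e-17). The step from DC to the next population, Tgd, was 4.03 ± 0.14 (adjusted p = 2.61e-13), whereas the steps from GN to MF, 0.05 ± 0.14, and from MF to DC, 0.69 ± 0.14, did not reach 2-fold. Tgd, at 7.67 and 7.83, was the highest lymphoid population, and both of its arrays lay above every other lymphoid array. It exceeded T8 by 1.36 ± 0.14 (adjusted p = 5.51e-06), Treg by 1.27 ± 0.14, NKT by 1.25 ± 0.14 and NK by 1.06 ± 0.14, but T4 by 0.96 ± 0.14, which was under 2-fold. Of all genes, 1.67%, 2.06%, 1.99% and 3.76% passed between Tgd and T8, Treg, NKT and NK.

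Lta4h, which makes the neutrophil attractant leukotriene B4, was bright in every population, and MF had the lowest level. MF arrays stood at 9.49 and 9.50, below every other array. NK were highest at 11.08 and 10.98, GN stood at 10.42 and 10.99, and DC at 10.36 and 10.30. The 12 lymphoid arrays spanned 10.20 to 11.08, with a median of 10.48. The range was 1.54 (adjusted p = 1.71e-06), and no neighbouring pair in the order of means differed by 2-fold. MF lay below NK by 1.54 ± 0.13 (adjusted p = 3.87e-08), a contrast in which 13.1% of all genes passed, and T4, the population next above MF, exceeded MF by 0.73 ± 0.13 (adjusted p = 0.000267).

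Ltc4s, which adds glutathione to leukotriene A4, was high in MF alone, at 11.50 and 11.55. Every other array lay between 6.64 and 7.30, with GN at 7.09 and 7.14 and DC at 6.74 and 6.70. The range was 4.80 (adjusted p = 1.25e-13), and the step from MF to GN, the next population, was 4.41 ± 0.15 (adjusted p = 1.79e-13). None of the later steps, the largest of them 0.15 ± 0.15 from GN to NK, passed. Mast cells and eosinophils, which also live in the peritoneal cavity, are known to carry this enzyme, and their markers were checked. In MF, 1 of 12 mast cell and basophil markers lay above the median of all genes (Hdc, at 10.06) and 0 of 7 eosinophil markers did. Cpa3, the mast cell carboxypeptidase, stood at 4.89 in MF, its lowest level in any population. The summed intensity of the mast cell and basophil list was 1598 and 1708 in MF, of which Hdc alone made up 1016 and 1124. On the lymphoid arrays the whole list summed to between 747 and 1987, so that MF lay within their span. The eosinophil list summed to 545 and 529 in MF and to 511 to 661 on the lymphoid arrays. Hdc itself was higher in MF than in any lymphoid mean, the highest being 7.93 in Tgd. Apart from Hdc, the genes of both lists lay below the median of all genes in MF, where low signal limits what they show. The part of mast cells, basophils and eosinophils in the Ltc4s level of MF was not tested.

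Alox15, a lipoxygenase of resident peritoneal macrophages that oxidises arachidonic acid and membrane lipids, had a range of 7.10 (adjusted p = 2.35e-11), level with that of Pla2g7. It stood at 13.57 and 13.69 in MF. GN arrays were at 6.67 and 6.98, DC arrays at 6.75 and 6.44, and the lymphoid arrays between 6.06 and 8.17 with a median of 6.73. The highest of these was T4 replicate 2 at 8.17, whereas T4 replicate 3 stood at 6.74. The step from MF to T4 was 6.18 ± 0.33 (adjusted p = 3.63e-11), and no later step passed.

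Ptgs2, the inducible cyclooxygenase, had a pattern opposite to that of Ltc4s and Alox15 within the myeloid cells. It was high in GN, at 12.03 and 11.66, and in DC, at 11.71 and 11.11, and low in MF, at 6.93 and 6.90. The lymphoid arrays lay between 5.74 and 6.92, with Tgd highest at 6.71 and 6.92, so that MF overlapped Tgd but no other lymphoid population. The range was 5.85 (adjusted p = 1.15e-14). GN exceeded DC by 0.44 ± 0.19 (adjusted p = 0.0616), which did not pass, and DC exceeded MF by 4.49 ± 0.19 (adjusted p = 3.84e-12). MF and Tgd differed by 0.10 ± 0.19. MF exceeded NK by 0.63 ± 0.19 (adjusted p = 0.0156) and T8, NKT, T4 and Treg by 0.87 to 0.92 ± 0.19, all under 2-fold.

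Ptges, the microsomal synthase that turns prostaglandin H2 into prostaglandin E2, was highest in MF at 9.29 and 9.45. GN followed at 7.68 and 7.66, above all other remaining arrays, which lay between 6.40 and 6.90. The range was 2.85 (adjusted p = 1.27e-11). MF exceeded GN by 1.70 ± 0.12 (adjusted p = 2.62e-09), and GN exceeded NKT by 0.85 ± 0.12 (adjusted p = 1.53e-05), under 2-fold. The cyclooxygenase Ptgs2 and the synthase Ptges were thus highest in different cells, and across the 9 population means their Pearson's r was 0.11.

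Hpgds, the haematopoietic synthase of prostaglandin D2, was highest in DC at 8.92 and 8.51. All other arrays were at 6.69 or below, and MF was lowest at 5.54 and 5.65. The range was 3.12 (adjusted p = 4.58e-09), and DC exceeded Treg, the next population, by 2.16 ± 0.19 (adjusted p = 6.68e-08). The DC value was higher on replicate 1, and what set the DC arrays apart was not tested.

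Pla2g7, a secreted phospholipase that inactivates platelet-activating factor and oxidised phospholipids, was high in all 3 myeloid populations. It stood at 12.98 and 12.81 in GN, 11.95 and 12.08 in MF, and 10.88 and 11.62 in DC, against 5.74 to 6.46 on the lymphoid arrays. Its range was 7.10 (adjusted p = 3.01e-16), and the step from DC to NKT was 4.86 ± 0.18 (adjusted p = 3.85e-13). GN exceeded MF by 0.88 ± 0.18 and MF exceeded DC by 0.77 ± 0.18, both under 2-fold.

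Over all 9 genes there were 72 steps between neighbours in the order of means, of which 9 passed. Of these, 8 also passed when each array of the populations concerned was left out in turn, and the exception was the Alox5 step from DC to Tgd. Of all genes, 20.7% passed between MF and GN, 10.9% between MF and DC, 13.6% between MF and T4, 9.56% between DC and Tgd, 9.88% between DC and Treg, and 10.5% between DC and NKT, the contrasts behind those 9 steps. These shares are for fixed pairs of populations, whether or not the pair are neighbours in a gene's own order. The share of neighbour steps that pass over all genes was not counted, so 9 of 72 has no background here.

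Myeloid and lymphoid populations were then compared directly, as the mean of the 3 against the mean of the 6. Of the 9 enzymes, 7 were higher in myeloid cells and 0 lower, where 6.39% of all genes were higher and 4.41% lower. The median difference of the 9 genes was 2.17, against -0.01 over all genes. Pla2g7 was higher by 6.00 ± 0.09 (adjusted p = 6.61e-19), Alox5ap by 5.49 ± 0.07, Alox5 by 4.02 ± 0.14 and Ptgs2 by 3.86 ± 0.10. Alox15 by 2.17 ± 0.16, Ltc4s by 1.58 ± 0.08 and Ptges by 1.14 ± 0.06 followed, all with MF as their highest population. Hpgds, at 0.65 ± 0.10, and Lta4h, at -0.34 ± 0.07, did not reach 2-fold. For 3 genes, Pla2g7, Alox5 and Alox5ap, all 6 myeloid arrays lay above all 12 lymphoid arrays, as they did for 4.23% of all genes.

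**Figure D2:**
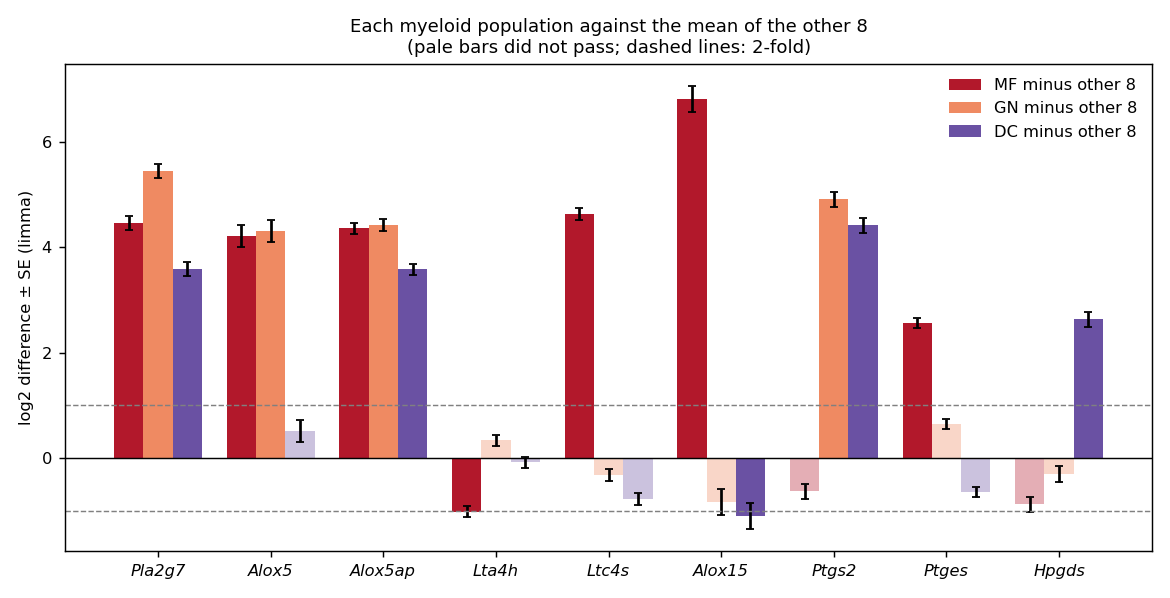
Log2 difference (y axis, bars, with SE from limma) of MF, GN and DC from the mean of the other 8 populations for each enzyme gene (x axis), pale where the difference did not pass and with dashed lines at 2-fold. Alox15 and Ltc4s have high bars in MF alone, at 6.81 and 4.64, Ptgs2 in GN and DC, at 4.91 and 4.42, and Hpgds in DC alone, at 2.64.

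MF were set against the mean of the other 8 populations. In MF, 6 of the 9 enzymes were higher and 1 lower, where 7.56% of all genes were higher and 4.19% lower. Alox15 was higher by 6.81 ± 0.24, Ltc4s by 4.64 ± 0.11 (adjusted p = 8.22e-16), Pla2g7 by 4.46 ± 0.13, Alox5ap by 4.36 ± 0.11, Alox5 by 4.21 ± 0.21 and Ptges by 2.56 ± 0.09. Lta4h was lower, at -1.02 ± 0.10 (adjusted p = 1.59e-07), and without GN replicate 2 it stood at -0.98, under 2-fold. Hpgds, at -0.88 ± 0.14, and Ptgs2, at -0.63 ± 0.14, did not reach 2-fold.

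In GN, 4 of the 9 enzymes were higher, against the mean over the other 8, and 0 lower, where 7.03% of all genes were higher and 11.7% lower. Pla2g7 was higher by 5.45 ± 0.13 (adjusted p = 2.07e-15), Ptgs2 by 4.91 ± 0.14, Alox5ap by 4.42 ± 0.11 and Alox5 by 4.31 ± 0.21. Ptges stood at 0.65 ± 0.09, Lta4h at 0.34 ± 0.10, Hpgds at -0.30 ± 0.14, Ltc4s at -0.32 ± 0.11 and Alox15 at -0.84 ± 0.24, all under 2-fold.

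In DC, 4 of the 9 enzymes were higher and 1 lower, where 5.31% of all genes were higher and 2.41% lower. Ptgs2 was higher by 4.42 ± 0.14 (adjusted p = 6.88e-14), Pla2g7 by 3.59 ± 0.13, Alox5ap by 3.58 ± 0.11 and Hpgds by 2.64 ± 0.14. Alox15 was lower, at -1.10 ± 0.24 (adjusted p = 0.00179), against a mean that includes MF, and it fell short of 2-fold, at -0.94, once DC replicate 2 was left out. Alox5 did not pass, at 0.52 ± 0.21 (adjusted p = 0.0649).

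Markers of granulocytes, monocytes and red pulp macrophages differed between the DC arrays, as did some of these values. DC replicate 2 exceeded replicate 1 by a median of 1.92 for the 12 granulocyte markers, all of them by at least 2-fold, by 1.84 for 5 monocyte markers and by 0.96 for 10 red pulp macrophage markers, but by -0.15 for 10 DC markers. Alox5 was higher on replicate 2 by 1.41 and Pla2g7 by 0.74, while Ptgs2 was lower by 0.60 and Hpgds by 0.41 (differences of -0.60 and -0.41). Without replicate 2, Alox5 in DC stood at -0.19 against the other 8 populations, and without replicate 1 it stood at 1.22 (adjusted p = 2.29e-06). The part of granulocyte, monocyte or red pulp macrophage RNA in these values was not tested. For description, the median intensity of the lymphoid arrays was taken from DC and GN alike. The remainder in DC was then given as a percentage of that in GN. The 12 granulocyte markers reached 1.68% to 17.5% on replicate 1 and 15.3% to 62.9% on replicate 2. With so wide a spread among the markers, these percentages measure no share of granulocyte RNA. Alox5 reached 3.28% on replicate 1 and 13.3% on replicate 2, and Pla2g7 24.0% and 40.7%. Alox5ap reached 54.2% and 63.7%, and Ptgs2 90.1% and 58.6%. Where these genes fell against the markers differed between the replicates, and nothing is read from it. Without replicate 2, Ptgs2, Alox5ap, Pla2g7 and Hpgds in DC were higher than in the other populations by 4.72, 3.47, 3.22 and 2.84.

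**Figure D3:**
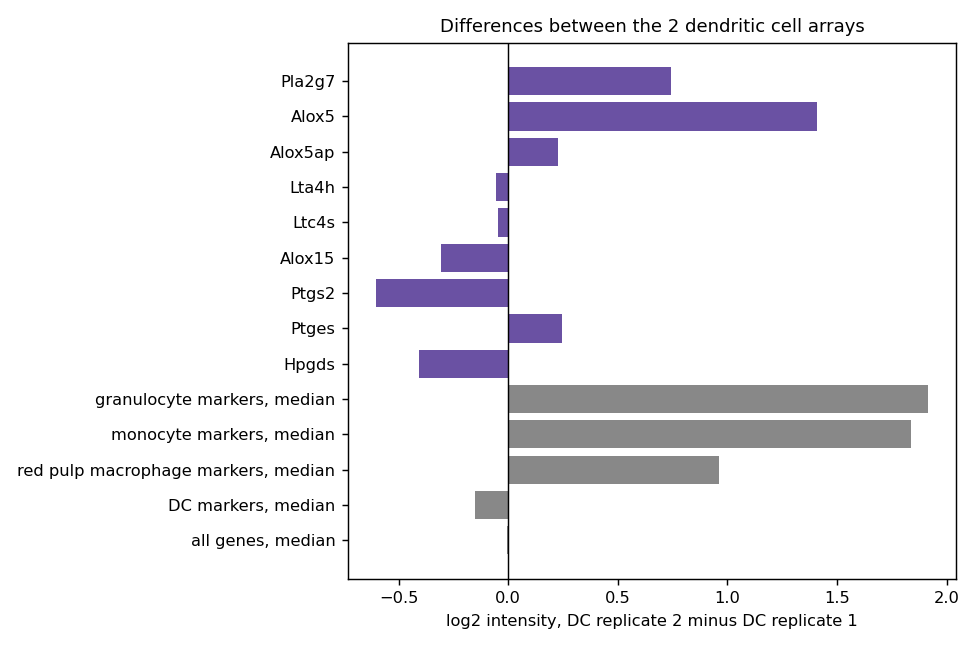
Log2 intensity of DC replicate 2 minus DC replicate 1 (x axis) for the 9 enzyme genes in purple and for the median of 4 marker lists and of all genes in grey. Alox5, at 1.41, the granulocyte markers, at 1.92, and the monocyte markers, at 1.84, were higher on replicate 2. Ptgs2, at -0.60, and Hpgds, at -0.41, were lower. The source of these differences was not tested.

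The myeloid populations were also compared with each other. Between MF and GN, 3 enzymes were higher in MF and 2 lower, where 14.1% of all genes were higher and 6.58% lower. Alox15 was higher in MF by 6.80 ± 0.33, Ltc4s by 4.41 ± 0.15 and Ptges by 1.70 ± 0.12, while Ptgs2, at -4.93 ± 0.19 (adjusted p = 9.45e-13), and Lta4h, at -1.21 ± 0.13 (adjusted p = 5.76e-07), were lower. Without GN replicate 2 the Lta4h difference was -0.92, under 2-fold. Between MF and DC, 4 were higher in MF and 2 lower, where 5.89% and 4.97% of all genes were. Alox15 was higher by 7.03 ± 0.33, Ltc4s by 4.80 ± 0.15, Alox5 by 3.29 ± 0.28 and Ptges by 2.85 ± 0.12, and Ptgs2, at -4.49 ± 0.19, and Hpgds, at -3.12 ± 0.19, were lower. Between GN and DC, 3 were higher in GN and 1 lower, where 5.77% and 11.1% of all genes were. Alox5 was higher in GN by 3.37 ± 0.28, Pla2g7 by 1.65 ± 0.18 and Ptges by 1.15 ± 0.12, and Hpgds was lower, at -2.61 ± 0.19. These contrasts share arrays, so their counts were not set against each other.

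Among the 6 lymphoid populations, 1 of the 9 enzymes passed, Alox5ap with a range of 1.36 (adjusted p = 5.25e-06), where 9.95% of all genes passed. The median range of the 9 genes was 0.73, against 0.33 over all genes. Lta4h, with a range of 0.81 (adjusted p = 0.00166) and NK highest, and Ptgs2, with a range of 0.82 (adjusted p = 0.0154) and Tgd highest, passed on p but not on size. Ltc4s and Ptges spanned 0.20 and 0.22 over the 6 means. In Tgd, Alox5ap, Alox5 and Ptgs2 had their highest lymphoid means. So did some marker genes of other cell types, and the share of all genes that peak in Tgd was not counted. Of the 12 mast cell and basophil genes 6 had their highest mean of all 9 populations in Tgd. Among them were Cpa3 at 7.88, and Mcpt8 at 6.47 and Ms4a2 at 5.47, both below the median of all genes. The rest of these 6, Fcer1a, Prss34 and Gata2, had ranges of 0.81, 0.61 and 0.86 over the 9 populations and did not pass. Without the share of all genes, the count does not say whether the list is unusual. The other 6 of the 12 peaked elsewhere, such as the protease gene Cma1, at 9.34 in NK and 5.63 in Tgd, and Kit, at 12.05 in DC and 9.31 in Tgd. The summed intensity of that list in Tgd, 1714 and 1987, overlapped the other lymphoid arrays, which lay between 747 and 1789, and 4 of its 12 genes lay above the median of all genes in Tgd. The B cell list did not overlap: it summed to 2725 and 2929 in Tgd and to between 853 and 1870 on the other lymphoid arrays. In Tgd 5 of its 8 genes lay above the median of all genes. Of the 8 genes, 5 had their highest lymphoid mean in Tgd, whereas Cd79a, Cd22 and Pax5 had theirs in NK. Among those 5, Blk, at 8.95 in Tgd, is also on the Tgd marker list, and Cd79b, at 10.42 in Tgd, stood at 9.91 in T8. The granulocyte list summed to 1471 and 1022 in Tgd and to between 744 and 2334 on the other lymphoid arrays, the highest of them NKT, where Mmp9 alone stood at 10.54. Left out after its values were seen, Mmp9 took these sums to 1321 and 871 in Tgd and to between 642 and 1332 elsewhere. Of the 12 granulocyte genes, 4 had their highest lymphoid mean in Tgd and 0 their highest of all 9 populations. Others were highest elsewhere among lymphoid cells, such as Ngp and Lcn2 in NK and Ly6g in T4. The chemokine receptor gene Cxcr2, among those 4, stood at 6.70 in Tgd, below the median of all genes. It stood at 5.14 or below in the other lymphoid populations (range 2.24, adjusted p = 8.14e-05). The part of such cells in the Tgd values was not tested.

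For each enzyme, the genes whose 9 population means were most like its own were listed by Pearson's r, over 7385 other named genes with at least a 2-fold range. These r are descriptions over 9 points that share their arrays. For genes high in 1 population, such as Ltc4s and Alox15 in MF, that population largely sets r. The rank correlation (Spearman's rho) of the listed pairs ran from 0.48, for Ptges with Rab11fip5, to 0.95, for Alox5 with Fgd4. Closest to Alox5 were Fgd4 (r = 0.999), the complement receptor C5ar1 (r = 0.997) and Hacd4 (r = 0.997). Closest to Alox5ap were the kinase Btk (r = 0.997), Pla2g4a, the cytosolic phospholipase that releases arachidonic acid (r = 0.996), and Tifa (r = 0.995). Closest to Pla2g7 were the sorting receptor Sort1 (r = 0.999), Ifitm6 (r = 0.998) and the lectin Cd33 (r = 0.996). Alox15 was most like the growth factor Tgfb2, with r = 0.995, then Saa3, an acute phase protein, and Aspa, with r = 0.994. Ltc4s was most like Dpysl3, the adaptor Gab1 and the caveolin Cav1. Ptges was most like the scavenger receptor Stab1 (r = 0.992), Adamtsl5 and Rab11fip5. Ptgs2 was most like Cd300c2, Plbd1 (r = 0.992) and Mefv, which encodes pyrin. Hpgds was most like Cdhr3 (r = 0.987), Hmgn3 and the collagen receptor Ddr1. For Lta4h the closest were Spty2d1 (r = 0.948), the channel Trpv2 and Elf4. Among the enzymes themselves, Alox5ap and Pla2g7 had r = 0.989, Alox15 and Ltc4s r = 0.990, and Ltc4s and Ptges r = 0.952.

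The rest of the pathway was described from 7 lists with 78 genes, of which 72 were measured. Over the 9 populations 40 of these 72 passed, where 39.0% of all genes did. Phospholipase A2 genes passed in 5 of 17 genes, with a median range of 0.55 against 0.71 over all genes. Pla2g4a was the widest. It had a myeloid pattern, at 10.81 ± 0.03 (SD, n = 2) in GN, 10.61 ± 0.01 in MF, 10.18 ± 0.09 in DC and at most 6.14 in lymphoid means (range 5.16, adjusted p = 1.95e-17). Pla2g15, a lysosomal phospholipase, was highest in MF at 10.30 ± 0.14 and in GN at 9.80 ± 0.03. Plaa, a phospholipase-activating protein, was lowest in GN at 7.74 ± 0.04.

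Of the other leukotriene and lipoxygenase enzymes 8 of 12 passed, with a median range of 1.20. Ggt5 and Dpep2, which convert leukotriene C4 to D4 and D4 to E4, had separate patterns. Dpep2 stood at 12.18 ± 0.09 in MF, where Ltc4s was also highest, and at 7.22 ± 0.19 or below elsewhere (range 6.13, adjusted p = 2.81e-15). Ggt5 was highest in GN at 11.31 ± 0.20, followed by DC at 9.72 ± 0.06 and T4 at 9.22 ± 0.11, and it was lower in MF, at -1.75 ± 0.12 against the other 8 populations. Mgst2, a microsomal transferase that can also make leukotriene C4, was lowest in MF at 6.67 ± 0.20 and highest in T8 at 9.34 ± 0.18.

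Of the other prostanoid synthases 4 of 9 passed, with a median range of 0.65, under that of all genes. Tbxas1, the thromboxane synthase, was highest in MF at 11.61 ± 0.03, with GN at 9.65 ± 0.52 and DC at 8.74 ± 0.52. Ptgis, the prostacyclin synthase, stood at 11.55 ± 0.17 in MF and 7.63 ± 0.31 or below elsewhere. Mgst1, a relative of Ptges, was highest in GN at 11.67 and in MF at 11.04 ± 0.13. Tbxas1, Ptgis and Ptges thus shared MF as their highest population, while Ptgs2 in MF was far below GN and DC and overlapped Tgd.

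**Figure D4:**
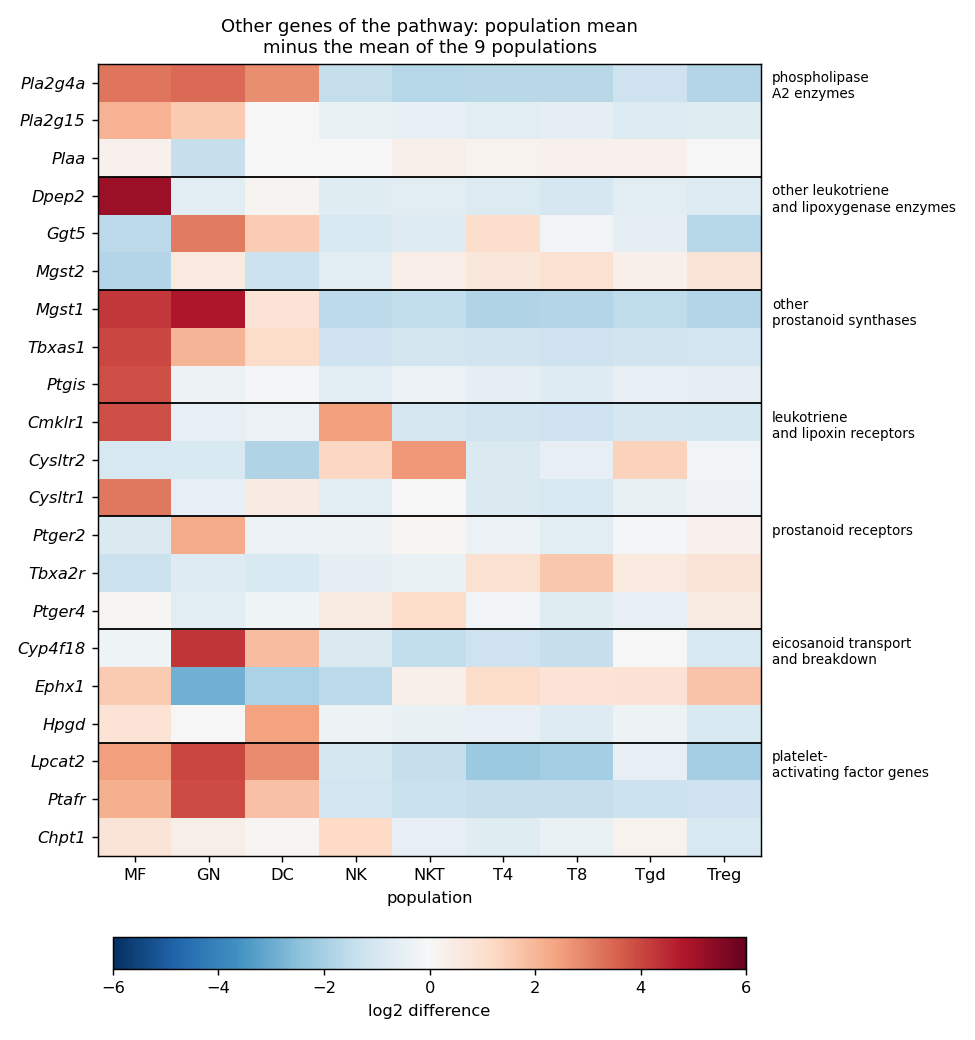
Population means of 21 other genes of the pathway (rows, grouped by list) in the 9 populations (columns), as log2 difference from the mean of the 9 (colour). Dpep2, Tbxas1, Ptgis, Cmklr1 and Cysltr1 are reddest in MF, Ggt5, Cyp4f18, Lpcat2 and Ptafr in GN, and Hpgd in DC.

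Of the leukotriene and lipoxin receptors 5 of 6 passed, with a median range of 3.84. The cysteinyl leukotriene receptors were high in different cells. Cysltr1 stood at 10.09 ± 0.36 in MF and 7.40 ± 0.20 in DC, whereas Cysltr2 was highest in NKT at 10.13 ± 0.26, Tgd at 8.90 ± 0.28 and NK at 8.75 ± 0.49, and lowest in DC at 5.74 ± 0.09. Cmklr1, a receptor for chemerin and for a lipid of the resolvin family, was highest in MF at 11.69 ± 0.03 and NK at 10.30 ± 0.12. The leukotriene B4 receptor gene Ltb4r1, singled out after its values were seen, was highest in GN at 9.38 ± 0.59, and the difference from the other 8 populations was 3.08 ± 0.16 (adjusted p = 1.06e-11).

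Prostanoid receptors passed in 5 of 9 genes, with a median range of 1.40. Ptger2, a prostaglandin E2 receptor, was highest in GN at 9.63 ± 0.11 and lowest in MF at 6.54 ± 0.03. Ptger4, another, was highest in NKT at 10.92 ± 0.02 and lowest in T8 at 9.09 ± 0.19. Tbxa2r, the thromboxane receptor, was highest in T8 at 10.37 ± 0.33 and T4 at 9.67 ± 0.34 and lowest in MF at 7.43 ± 0.02, where the synthase Tbxas1 was highest.

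Transport and breakdown genes passed in 7 of 10 genes, with a median range of 1.47. Cyp4f18, which oxidises leukotriene B4, was highest in GN at 11.83 ± 0.19 and DC at 9.40 ± 0.82. Hpgd, which inactivates prostaglandins, was highest in DC at 9.21 ± 0.29, the population in which Hpgds was also highest, and was higher there than in the other 8 by 2.72 ± 0.18 (adjusted p = 1.35e-09). Ephx1, an epoxide hydrolase, was highest in Treg at 10.82 ± 0.17 and MF at 10.72 ± 0.17 and lowest in GN at 6.25 ± 0.13. Of the platelet-activating factor genes 6 of 9 passed, with a median range of 1.48. The synthesis enzyme Lpcat2 and the receptor Ptafr were highest in GN, at 12.72 ± 0.11 and 12.04 ± 0.05, as was Pla2g7, which inactivates this lipid. Lpcat2 stood at 11.54 ± 0.08 in DC and 11.18 ± 0.02 in MF, and Ptafr at 10.24 ± 0.16 in MF and 9.84 ± 0.53 in DC. Chpt1, a phosphotransferase, was highest in NK at 8.88 ± 0.06.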

How the data were processed

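The deposited values were probe set intensities on a linear scale, per the submitters' processing notes from RMA in Affymetrix Power Tools, which corrects background, normalizes and summarises probes. No source used here gives versions or says whether all arrays were normalized together. RMA compresses differences of dim genes. Of 24922 probe sets, 21425 had 1 gene symbol, 1399 several and 2098 none. Symbols came from GEO's platform annotation and were updated by Entrez number against the RefSeq gene table of GRCm38.p6. The brightest of several probe sets of a gene was used, which left 19752 genes. The log2 values of the 18 arrays entered a single limma 3.58.1 model (R 4.3.3; eBayes with trend) that had a mean for each population and nothing else, giving 9 residual and 7.69 prior degrees of freedom. Tests were two-sided and adjusted by Benjamini-Hochberg over all genes. The script was tested on simulated data. Array medians lay between 138.5 and 151.0, and precision is limited by the number of arrays.

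The 10 enzymes were all named. Of each pathway list, up to 3 genes that passed over the 9 populations with the widest range were named, and for each enzyme the 3 most alike genes, without clone and small RNA names. Members and lists were chosen with earlier results of these data known. Alternatives were array scaling, the prior, a filter on dim genes, the probe set rule, the replicate number as a block, the call rule and leaving out each array.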

Additional observations from a re-analysis of the deposited data

How the results depend on the processing

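The 81 values of the 9 enzymes in 9 comparisons were recomputed under 25 alternatives, 18 of which left out 1 array. Of the 2025 recomputed values, 1990 kept direction and side of the threshold, 25 newly passed, 3 no longer passed and 7 changed sign, each of these from a value that had not passed. Without the 2-fold minimum, the members passing were 3 among lymphoid populations, 8 in GN against the other 8 populations and 7 in GN against DC, and 16 neighbour steps passed. Leaving out 1 array gave 1 to 2 members passing among lymphoid populations: Alox15 was added without T4 replicate 3 (range 1.64) and Ptgs2 without Treg replicate 3 (range 1.07). The difference of Pla2g7 between MF and DC was 1.14 and passed without DC replicate 2. Between MF and GN, Alox5 changed sign to 0.058 with quantile normalization, 0.0026 without GN replicate 1 and 0.023 without MF replicate 2, with a range of -0.20 to 0.023 when 1 array was left out. Alox5ap did so to 0.091 with quantile normalization and 0.00034 without GN replicate 2, with a range of -0.11 to 0.00034. Alox5 in DC ranged from -0.19 without DC replicate 2 to 1.22 without DC replicate 1. With the replicate number as a block, Lta4h in DC changed sign to 0.0078, Pla2g7 between MF and GN passed at -1.03, and the 9 counts of members were otherwise within 1 of those given. Deviations of same-numbered arrays correlated over 0.1 in all 6 pairs among NK, T4, T8 and Treg (0.13 to 0.47), but in 2 of the other 12 pairs (-0.16 to 0.17), so the block was not taken as the design for all populations, while a shared source of same-numbered arrays in those 4 was not tested. Of the 3 most alike genes, fewer than 2 were shared under 6 alternatives for Lta4h and Ltc4s each, 4 for Ptges, 2 for Hpgds and 1 for Alox15, and under none for the other 4 enzymes. Signal near the background limits what can be read from the low levels.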
